A study of Mus musculus with 12 samples.

Results

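ERK output and feedback genes are the transcripts by which activity of the RAS-RAF-MEK-ERK kinase pathway is commonly read, and 10 of them were followed here: *Dusp4*, *Dusp6*, *Spry2*, *Spry4*, *Spred1*, *Etv4*, *Etv5*, *Fosl1*, *Egr1* and *Myc*. They were chosen by name, and all 10 were found among the 23022 genes listed with a value. The libraries came from B16-F10, a mouse melanoma cell line of C57BL/6 origin, in which every group carried Cas9 through a single Cas9-expressing clone. The 4 groups of 3 libraries were control cells (NTC, called a no template control in the labels and a non-targeting guide in the study), control cells with IFNγ, cells in which a paired guide targeted *Mbnl1* and *Mbnl2* (DKO), and DKO cells with IFNγ at 1 ng per mL for 24 h. In the study some MBNL protein remained on blots of the edited populations, which were polyclonal, and whether the sequenced cells were such a population or a subclone was not given in the sources used here. The labels number the 3 replicates of a group without saying that they were separate cultures, so p-values measure the spread between these libraries, which may be technical.

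ERK is the last kinase of a cascade that growth factor receptors and mutant RAS or RAF switch on, and in melanoma it is a main driver of growth. Active ERK enters the nucleus, where it acts on transcription factors such as the ETS proteins and relieves repression by Capicua (Cic), and a set of target genes rises. Part of that set are inhibitors of the same pathway. DUSP phosphatases remove phosphate from ERK itself, while Sprouty and Spred proteins act upstream near RAS and RAF, so the RNA of these feedback genes is widely used as a readout of pathway output. Protein and phosphorylated ERK were not analysed here.

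The values are in TPM, each transcript's share of its library scaled for its length, and keep no read depth. Differences were tested with limma on log2(TPM + 1) over the 11663 genes that reached 1 TPM in at least 3 libraries, with Benjamini-Hochberg adjustment over all of them and a threshold of 0.05. Adding 1 shrinks the difference of a gene with few TPM. For a single gene, 3 libraries against 3 cannot give an exact two-sided permutation p below 0.1. The labels were checked on the targeted and IFNγ response genes. *Mbnl1* was lower in DKO cells by a log2 difference of −0.41 without IFNγ and −0.47 with it (limma adjusted p = 2.54e-05 and 8.12e-06), and *Mbnl2* by −0.20 and −0.23. Without and with IFNγ, 19.4% and 23.9% of all tested genes were called lower, so these falls are a weak check of the genotype label. For the treatment label, 7 of 7 tested IFNγ response genes rose with IFNγ in each genotype. Of 8 melanocytic markers, 8 passed the test, all lower, in DKO cells without IFNγ, where 19.4% of all tested genes were called lower. With IFNγ 7 were lower and *Sox10* did not pass, beside 23.9% of all tested genes called lower. Their summed level was 16727 to 18744 TPM in the NTC libraries and 11176 to 12477 TPM in the DKO libraries. Markers of other cell types (10 listed) summed without IFNγ to 1.15 to 1.26 TPM in NTC and 1.84 to 2.04 TPM in DKO libraries. With IFNγ they summed to 0.257 to 1.57 and 1.69 to 1.98 TPM. *Ptprc*, *Cd3e*, *Epcam* and *Krt14* were listed at 0 in every library, and so were the fibroblast markers *Dcn* and *Acta2*. The 1 marker that could be tested, the fibroblast collagen *Col1a1*, passed the filter only through its DKO libraries and was higher in DKO cells by 0.40 without IFNγ and 0.67 with it (limma adjusted p = 0.0121 and 0.000354), at no more than 1.17 TPM in any library. The fall in melanocytic markers and the rise in *Col1a1* moved with every genotype difference given below, and their part in them was not tested.

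DKO cells held more *Dusp6* and *Etv5* RNA than NTC cells and less *Dusp4* and *Spred1* RNA, both without and with IFNγ. *Dusp6* was 1.88-fold and *Etv5* 2.4-fold as abundant in untreated DKO as in untreated NTC libraries, while *Dusp4* and *Spred1* stood at 0.803 and 0.806 of the NTC level. *Spry2*, *Egr1* and *Myc* did not pass the test in either comparison. None of the 8 tested genes passed the test for IFNγ in NTC cells, in DKO cells, or for a difference between those responses. Of all tested genes, 12.1%, 0.78% and 0.0343% passed these tests. In bulk RNA, fewer cells that express a gene and less RNA per cell cannot be told apart.

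**Figure D1:**
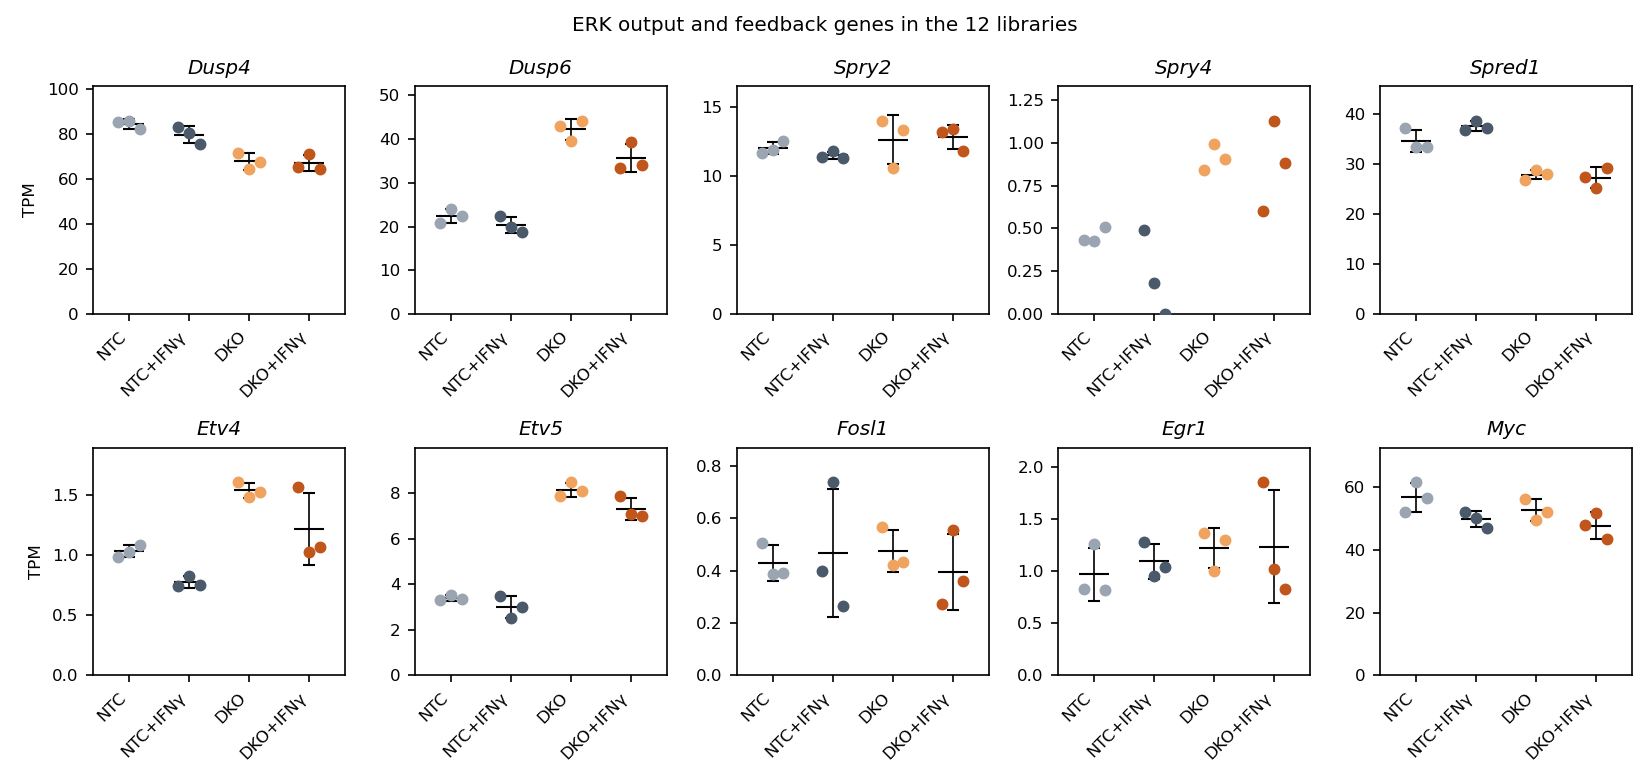
TPM (y axis, linear, from 0, a separate scale for each gene) of the 10 genes in the 12 libraries, by group on the x axis; each point is 1 library, the long bar is the mean and the whiskers are 1 SD over 3 libraries, left out for *Spry4*, which is listed at 0 in 1 library. The DKO libraries of *Dusp6* (33.5 to 44.2 TPM) and *Etv5* (6.97 to 8.47 TPM) all sit above the NTC libraries, and those of *Dusp4* and *Spred1* all sit below.

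In untreated NTC cells the 10 genes covered a wide range of levels. *Dusp4* was the most abundant at 84.6 ± 2.03 TPM (SD, n = 3), followed by *Myc* at 56.8 ± 4.72, *Spred1* at 34.7 ± 2.2, *Dusp6* at 22.5 ± 1.61 and *Spry2* at 12 ± 0.395 TPM. *Etv5* stood at 3.4 ± 0.127 TPM. *Etv4* (1.04 ± 0.054) and *Egr1* (0.968 ± 0.255) overlapped in their libraries and so did *Spry4* (0.455 ± 0.0474) and *Fosl1* (0.428 ± 0.0687), whereas the other neighbours in this order did not overlap. The order changed at 1 place in untreated DKO cells among the genes above 2 TPM, where *Dusp6* (42.2 ± 2.35 TPM) stood above *Spred1* (27.9 ± 1). *Spry4* and *Fosl1* did not reach 1 TPM in 3 libraries and could be tested only with no filter on low values, over the 16123 genes above 0 in at least 1 library. *Etv4* reached 1 TPM in 6 of 6 DKO and 2 of 6 NTC libraries, so it was tested only because of its level in DKO cells.

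The phosphatase genes were described first. *Dusp6* encodes a cytoplasmic phosphatase that is selective for ERK, and the gene lies at chr10:99263231-99267489 on the plus strand of GRCm38. Without IFNγ, NTC libraries held 20.9, 24.1 and 22.3 TPM of *Dusp6* and DKO libraries 42.9, 39.6 and 44.2 TPM. Under IFNγ the NTC libraries held 22.4, 20 and 18.7 TPM against 33.5, 39.3 and 34 TPM in DKO. Every DKO library was above every NTC library. The log2 difference was 0.88 without IFNγ (SE 0.0795, limma adjusted p = 2.68e-06), which ranked 88 among the 11663 tested genes ordered from the largest increase, and 0.78 with it (adjusted p = 6.56e-06, rank 191). These comparisons use separate libraries, but both set the same DKO guide label against the same NTC label. Genotype cannot be told apart in this design from the guide used or from how the cells were derived.

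*Dusp4* encodes a nuclear phosphatase that acts on ERK and also on JNK and p38, and it lies at chr8:34807297-34819894 on the plus strand. It went the other way. Untreated NTC libraries held 85.5, 86 and 82.2 TPM, against 71.7, 64.5 and 67.5 TPM for DKO. After IFNγ the values were 83.2, 80.4 and 75.6 TPM for NTC against 65.6, 71.1 and 64.4 TPM for DKO. The groups did not overlap in either case, and the lowest NTC library was 75.6 TPM against 71.7 TPM for the highest DKO library. The log2 difference was −0.31 without IFNγ (SE 0.0536, limma adjusted p = 0.000512) and −0.25 with it (adjusted p = 0.0024), the latter falling to −0.16 (adjusted p = 0.0356) when each library was scaled to the same total.

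Since *Dusp6* and *Dusp4* moved in opposite directions, their ratio within a library had to move more than either gene and is no further evidence. The ratio of *Dusp6* to *Dusp4* TPM, a pair chosen after the values were seen, was 0.266 ± 0.0186 in untreated NTC (SD, n = 3) and 0.623 ± 0.0287 in untreated DKO libraries. With IFNγ it was 0.255 ± 0.0122 and 0.531 ± 0.021. *Dusp4* remained the more abundant of the pair in all 12 libraries. A ratio of TPM within a library does not depend on how libraries were scaled to each other.

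The Sprouty and Spred genes differed among themselves. *Spred1*, whose protein brings neurofibromin to the membrane to switch RAS off, lies at chr2:117121374-117182279 on the plus strand. NTC libraries held 37.2, 33.4 and 33.4 TPM before treatment, and DKO libraries 26.9, 28.8 and 28.1 TPM. The treated NTC libraries held 36.8, 38.7 and 37.2 TPM, and their DKO counterparts 27.4, 25.2 and 29.3 TPM. Each DKO library was below each NTC library, with a log2 difference of −0.30 without IFNγ (SE 0.062, limma adjusted p = 0.00203) and −0.45 with it (adjusted p = 8.48e-05). The difference between those values, −0.15 (95% interval −0.34 to 0.04), did not pass the test (adjusted p = 0.511).

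*Spry2*, a Sprouty inhibitor of receptor signaling to RAS, lies at chr14:105891947-105896819 on the minus strand. Its untreated NTC libraries, at 11.7, 11.9 and 12.5 TPM, overlapped those of DKO at 14, 10.6 and 13.3 TPM. With IFNγ the NTC libraries held 11.4, 11.8 and 11.3 TPM and the DKO libraries 13.2, 13.4 and 11.8 TPM, the lowest DKO value lying just above the highest NTC value. The log2 difference was 0.06 without IFNγ (95% interval −0.13 to 0.24, limma adjusted p = 0.653) and 0.15 with it (interval −0.04 to 0.33, adjusted p = 0.187). With IFNγ it passed when libraries were scaled to the same total (0.23, adjusted p = 0.0499) and when each library was corrected for GC content and gene length (0.24, adjusted p = 0.0445).

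*Spry4*, another Sprouty gene, was low throughout. Untreated, it was measured at 0.432, 0.424 and 0.51 TPM in NTC cells and at 0.844, 0.995 and 0.904 TPM in DKO cells. Treated NTC libraries gave 0.491, 0.182 and 0 TPM, and treated DKO libraries gave 0.605, 1.13 and 0.885 TPM. All 6 DKO libraries were above all 6 NTC libraries, but the share of genes with such a separation was not computed. In the fit with no filter the log2 difference was 0.40 without IFNγ (95% interval 0.10 to 0.70), which missed the threshold (limma adjusted p = 0.0548), and 0.62 with IFNγ, which passed it (adjusted p = 0.00497). The test of the difference between them did not pass (0.23, adjusted p = 0.724). At these levels the number of reads behind a value is unknown, and 2 small RNA genes on the opposite strand overlap *Spry4* in libraries that do not keep strand.

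*Etv5* and *Etv4* encode ETS transcription factors of the PEA3 group, which Capicua is known to repress until ERK relieves it. *Etv5* lies at chr16:22381309-22439719 on the minus strand. It was low in NTC cells, at 3.3, 3.54 and 3.36 TPM untreated and 3.5, 2.54 and 3 TPM treated. In DKO cells it reached 7.87, 8.47 and 8.1 TPM untreated and 7.87, 7.09 and 6.97 TPM treated. The highest NTC library, 3.54 TPM, was far below the lowest DKO library, 6.97 TPM. The log2 difference was 1.06 without IFNγ (SE 0.0908, limma adjusted p = 1.76e-06, rank 47 of 11663 from the largest increase) and 1.05 with it (adjusted p = 1.63e-06, rank 61). Its difference in IFNγ response between genotypes was −0.002 with a 95% interval of −0.28 to 0.27.

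*Etv4* lies at chr11:101769742-101785371 on the minus strand and was close to 1 TPM. In NTC cells its values were 0.986, 1.03 and 1.09 TPM untreated and 0.746, 0.832 and 0.751 TPM treated. In DKO cells they were 1.61, 1.49 and 1.53 TPM untreated and 1.57, 1.03 and 1.07 TPM treated, where replicate 1 stood apart from the others. NTC and DKO libraries did not overlap in either case. The log2 difference was 0.32 without IFNγ (SE 0.117, limma adjusted p = 0.0467) and 0.31 with it (adjusted p = 0.0432). Both calls sat at the threshold. Among 21 other settings it passed in 8 without IFNγ and in 7 with it, and the value with IFNγ was 0.20 (adjusted p = 0.184) without treated DKO replicate 1 and 0.16 (adjusted p = 0.291) after correction for GC content and length.

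Promoter sequence is shown for the genes called in opposite directions, to set the letters before their starts side by side. RefSeq windows of GRCm38.p6, from 250 bases before to 50 after a start, were available for *Dusp6*, *Spred1*, *Spry2* and *Etv5*, the last with 2 starts. Below are the 250 bases before the start in 5′ to 3′ direction, for *Dusp6* (chr10:99262981-99263230, plus strand), the inner start of *Etv5* (chr16:22438369-22438618, minus strand) and *Spred1* (chr2:117120821-117121070, plus strand). Capitals mark TGAATG on either strand (CATTCA as printed), the core of the site that Capicua is known to bind, a search added after the windows had been seen.
Dusp6: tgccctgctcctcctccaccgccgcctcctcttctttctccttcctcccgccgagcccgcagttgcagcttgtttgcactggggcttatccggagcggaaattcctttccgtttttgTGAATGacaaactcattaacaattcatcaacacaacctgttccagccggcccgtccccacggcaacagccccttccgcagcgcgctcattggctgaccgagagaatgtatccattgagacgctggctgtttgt
Etv5: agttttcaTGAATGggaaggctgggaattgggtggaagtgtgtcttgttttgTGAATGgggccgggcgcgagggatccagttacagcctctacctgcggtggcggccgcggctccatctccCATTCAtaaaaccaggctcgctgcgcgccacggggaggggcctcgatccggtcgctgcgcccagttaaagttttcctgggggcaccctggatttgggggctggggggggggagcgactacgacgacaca
Spred1: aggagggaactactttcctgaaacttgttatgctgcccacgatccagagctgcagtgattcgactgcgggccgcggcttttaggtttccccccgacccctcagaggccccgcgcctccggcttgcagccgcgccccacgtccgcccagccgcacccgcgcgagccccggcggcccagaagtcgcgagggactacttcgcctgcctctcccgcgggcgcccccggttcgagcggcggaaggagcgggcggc

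*Dusp6* held 1 match, whose last base lies 128 bases before the start, and the inner *Etv5* window held 3, with last bases 237, 193 and 124 bases before the start. The windows of *Spred1*, *Spry2* and the outer *Etv5* start held none. Of all 32851 promoter windows, 12.7% held at least 1 match and 0.17% held 3 or more. The bar of 3 is the count of the inner *Etv5* window and, like the search, was set after the windows had been seen. The longer Capicua site TGAATGAA was in none of the 5 windows (1.3% of all promoters), nor was the CArG box (1.63%), the ETS site CGGAAGT (6.42%), the AP-1 site TGACTCA (5.2%), the E-box CACGTG (7.15%) or the STAT site TTCNNNGAA (8.3%), each searched on both strands. A match is a run of letters and no measure of binding. *Cic* itself was measured without IFNγ at 28.9, 32.8 and 32.2 TPM for NTC against 34.2, 32.8 and 34.6 TPM for DKO, a log2 difference of 0.11 (limma adjusted p = 0.286). With IFNγ *Cic* was higher in DKO cells by 0.29 (adjusted p = 0.00833).

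The early-response transcription factors overlapped between the genotypes. *Myc*, a driver of growth and ribosome production at chr15:61985391-61990374 on the plus strand, was measured in NTC cells at 52.2, 61.6 and 56.5 TPM untreated and 52, 50.3 and 47 TPM treated. The DKO values were 56.4, 49.6 and 52 TPM untreated and 48, 51.9 and 43.5 TPM treated. The groups overlapped in both cases. The log2 difference between genotypes was −0.11 without IFNγ (95% interval −0.27 to 0.06, limma adjusted p = 0.294) and −0.06 with it (interval −0.22 to 0.10, adjusted p = 0.555).

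*Egr1*, an immediate early zinc finger factor, ranged from 0.816 to 1.26 TPM in untreated NTC and from 1 to 1.36 TPM in untreated DKO libraries. With IFNγ the ranges were 0.957 to 1.28 TPM in NTC and 0.831 to 1.85 TPM in DKO libraries. Its wide overlap left a 95% interval of −0.17 to 0.53 for the untreated log2 difference of 0.18 (limma adjusted p = 0.424). *Fosl1*, an AP-1 subunit at chr19:5447547-5455946 on the plus strand, lay between 0.266 and 0.737 TPM in NTC and between 0.271 and 0.565 TPM in DKO libraries. It had log2 differences of 0.05 and −0.06 in the fit with no filter (adjusted p = 0.85 and 0.734). *Ccdc85b*, on the opposite strand, overlaps *Fosl1* and reached 6.33 TPM, and in libraries without strand, reads from the stretch that both cover cannot be told apart.

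Set together, 5 of the 8 tested genes passed in untreated cells, 3 higher (*Dusp6*, *Etv5* and *Etv4*) and 2 lower (*Dusp4* and *Spred1*), which is 62.5% beside 36.4% of all tested genes. With IFNγ the same 5 genes passed in the same directions, beside 43.3% of all tested genes. Over all tested genes, 27.5% passed in both comparisons in a shared direction, 12.5% higher and 15% lower. By direction the background was 17% higher and 19.4% lower in untreated cells, and 19.5% higher and 23.9% lower with IFNγ. Libraries of the genotypes did not overlap in 51.6% of tested genes without IFNγ and in 49.9% with it, so non-overlap was common in these data. The share of genes without overlap over untreated and treated libraries together was not computed, nor was any share for genes below the filter. The median log2 difference of the 8 genes was 0.12 without IFNγ and 0.11 with it, beside −0.006 and −0.01 over all tested genes. A log2 difference above 0.75 in both comparisons, a bar set after the values were seen, was reached by *Dusp6* and *Etv5* and by 103 tested genes in all (0.883%). No count over these genes is support for a common direction, since *Etv4* entered only through its DKO libraries and *Spry4* and *Fosl1* were left out for their low values.

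**Figure D2:**
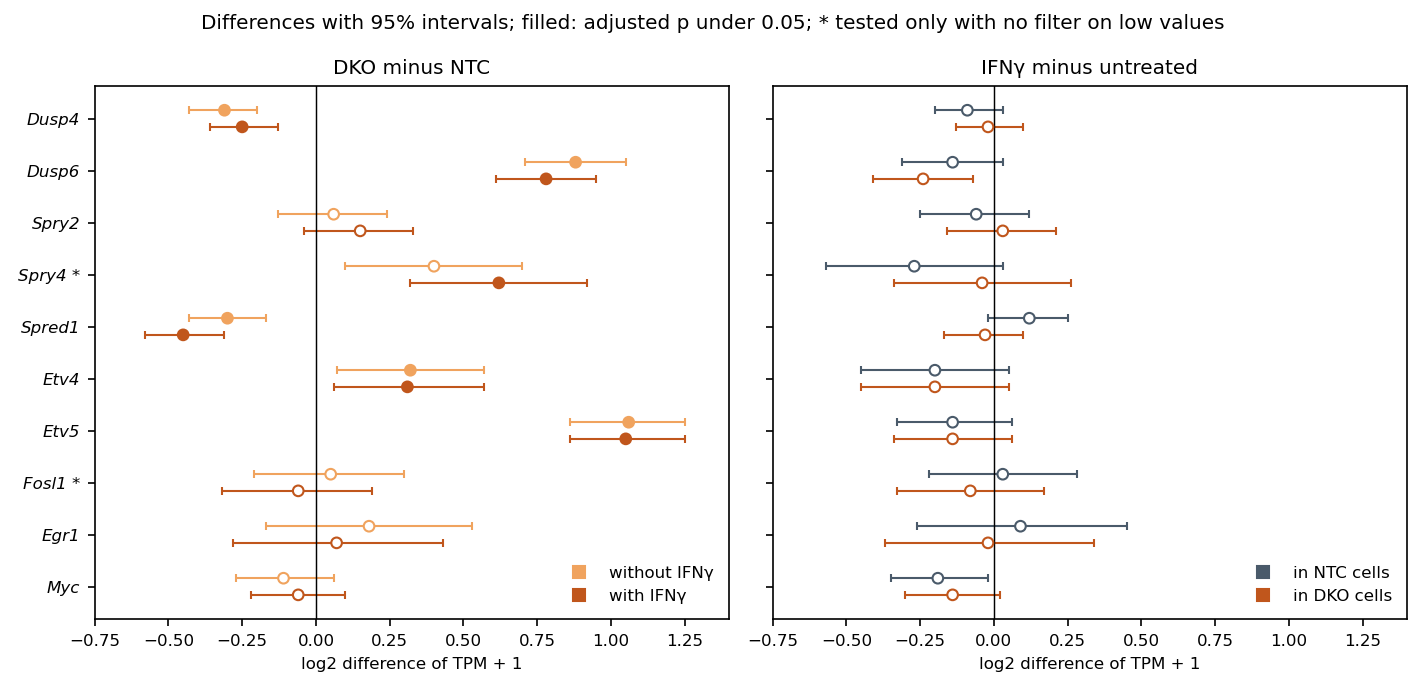
Log2 differences of TPM + 1 (x axis) with 95% intervals from limma for the 10 genes (y axis), DKO minus NTC on the left and IFNγ minus untreated on the right; filled points have an adjusted p under 0.05, and an asterisk marks genes tested only with no filter. *Dusp6* and *Etv5* lie between 0.78 and 1.06 on the left, while every point on the right lies between −0.27 and 0.12 and is open.

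The IFNγ differences of the 10 genes lay between −0.27 and 0.12 on the log2 scale. In NTC cells none of the 8 tested genes passed, beside 12.1% of all tested genes, and 1 had an unadjusted p under 0.05, beside 31.8%. That gene was *Myc*, at a log2 difference of −0.19 (95% interval −0.35 to −0.02, limma adjusted p = 0.109), with every treated library below every untreated one. *Etv4* also did not overlap (−0.20, adjusted p = 0.262), beside 36.6% of all tested genes. *Spred1* had the only positive value beyond 0.1, at 0.12 (interval −0.02 to 0.25), and it was −0.004 after correction for GC content and length.

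In DKO cells none of the 8 passed either, where few genes did (0.78% of all tested genes). *Dusp6* had the largest value, −0.24 (95% interval −0.41 to −0.07), with an unadjusted limma p of 0.00913 and an adjusted p of 0.311, and its treated libraries were all below its untreated ones, beside 14.7% of all tested genes without overlap. It was the 1 gene of 8 with an unadjusted p under 0.05, beside 9.59% of all tested genes. The median of the 8 genes was −0.11 in NTC and −0.09 in DKO cells, beside 0.02 and 0.008 over all tested genes. None of the 8 passed the limma test of the difference between these responses, at an unadjusted p under 0.05 either, beside 0.0343% (4 genes) of all tested genes after adjustment and 11.5% before it. The values of that difference lay between −0.15 for *Spred1* and 0.09 for *Spry2*. IFNγ and genotype comparisons share libraries, so a high or low untreated group enters both.

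**Figure D3:**
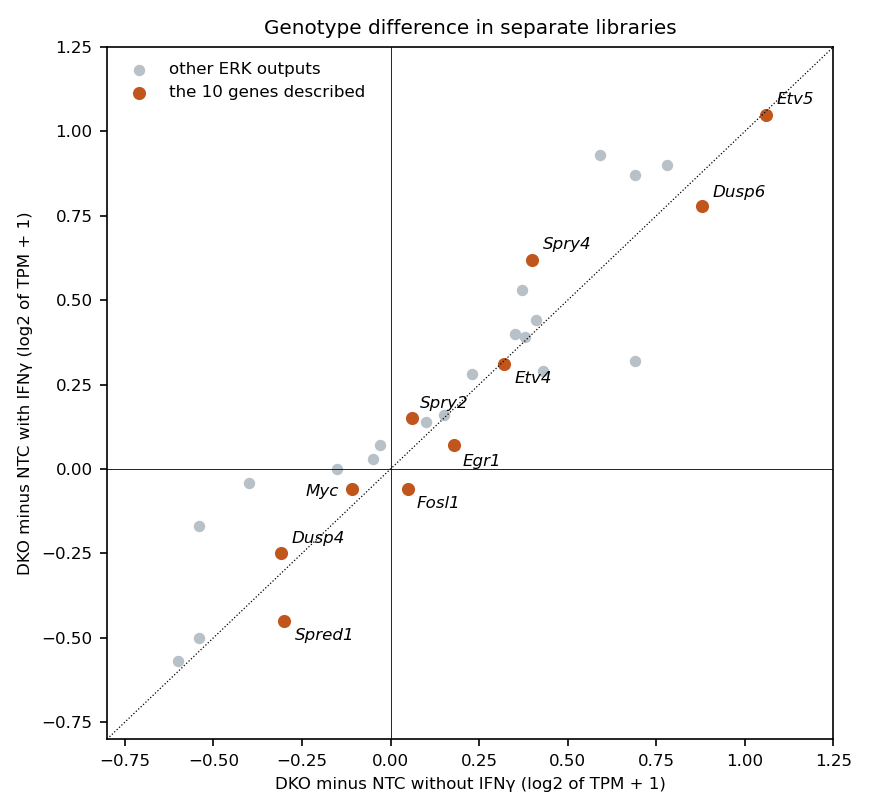
Log2 difference of TPM + 1 between DKO and NTC without IFNγ (x axis) and with IFNγ (y axis). The libraries are separate, but the guide labels are the same in both comparisons. Orange points are the 10 genes (*Spry4* and *Fosl1* from the fit with no filter). Grey points are 19 other tested ERK output and feedback genes, and the dotted line marks equal values. *Etv5* (1.06 and 1.05) and *Dusp6* (0.88 and 0.78) sit at the upper right, with *Dusp4* and *Spred1* at the lower left.

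The other members of these families and further common readouts of ERK output also held genes called in each direction. Of 28 genes on this list, 27 were found and 19 tested. In untreated cells 8 rose and 4 fell in DKO (63.2% called beside 36.4% of all tested genes, median 0.23), and with IFNγ 7 were higher and 2 lower (47.4% called beside 43.3%, median 0.28). The share with IFNγ was near that of all tested genes. *Hmga2*, a chromatin protein of growing and dedifferentiated cells, rose from 13.5, 13.1 and 12.1 TPM in NTC to 24.9, 20.7 and 22.9 TPM in DKO cells without IFNγ (0.78, SE 0.0796, limma adjusted p = 7.76e-06). *Plaur*, the urokinase receptor, rose by 0.69 without IFNγ and 0.87 with it (adjusted p = 0.000285 and 3.95e-05). *Ccnd1*, cyclin D1, went from 50.3, 50.6 and 52.4 TPM in NTC to 82, 73.9 and 76 TPM in DKO cells without IFNγ, a difference of 0.59 (adjusted p = 0.000129). With IFNγ that difference was 0.93 (adjusted p = 2.4e-06), with NTC libraries at 45.4, 35.9 and 37.1 TPM, and the change in difference was 0.34 and did not pass (adjusted p = 0.385).

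*Etv1*, the third PEA3 factor, was also higher in DKO cells, by 0.43 without IFNγ and 0.29 with it (limma adjusted p = 0.000269 and 0.00401). The nuclear phosphatase *Dusp2* (−0.60, adjusted p = 0.000562), a relative of *Dusp4*, and *Dusp8* (−0.54, adjusted p = 0.0003), which acts on JNK and p38, were lower without IFNγ and again with it (−0.57 and −0.50). *Dusp7* (0.41, adjusted p = 0.00629), a relative of *Dusp6*, was higher without IFNγ and again with it (0.44, adjusted p = 0.00385). *Dusp9*, of the same ERK-selective group, was higher without IFNγ (0.69, adjusted p = 0.00307) but did not pass with it (0.32, adjusted p = 0.105). It had at most 0.555 TPM in NTC libraries and so was tested only because of its level in DKO cells. *Spred3* was higher by 0.35 and 0.40 (adjusted p = 0.00895 and 0.00381), against the direction of *Spred1*. *Spry1* and *Spred2* did not pass in either comparison. *Areg* and *Ereg*, ligands of the EGF receptor, were listed at 0 in every library.

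Upstream of RAS, without IFNγ 5 of 17 tested receptors and adaptors rose in DKO cells and 4 fell (52.9% called beside 36.4% of all tested genes), and 7 and 4 with IFNγ (64.7% beside 43.3%). *Kit*, the receptor for stem cell factor and a melanocyte growth receptor, went from 3.35, 3.94 and 3.47 TPM in NTC to 0.458, 0.574 and 0.425 TPM in DKO cells without IFNγ. Its log2 difference was −1.63 (SE 0.104, limma adjusted p = 1.29e-07) and −1.82 with IFNγ (adjusted p = 4.52e-08). *Kit* was below 1 TPM in every DKO library, so it was tested only because of its level in NTC cells. *Met*, the receptor for hepatocyte growth factor and far more abundant, fell from a mean of 350 to 212 TPM (−0.72, adjusted p = 1.02e-07). *Erbb3* (0.82, adjusted p = 6.98e-05), *Axl* (0.70, adjusted p = 0.000121) and *Igf1r* (0.44, adjusted p = 0.00124) were higher. With IFNγ *Igf1r* was higher by 0.76, *Erbb3* by 0.73 and *Axl* by 0.70.

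In the cascade from RAS to ERK, without IFNγ 4 of 23 tested genes rose in DKO cells and 6 fell (43.5% called beside 36.4% of all tested genes), and 3 and 8 with IFNγ (47.8% beside 43.3%), where the 8 became 4 without treated NTC replicate 2. Both shares were near those of all tested genes. *Braf*, a kinase of the RAF step, fell from 24.2, 21.4 and 23.1 to 16.7, 16.3 and 15.1 TPM (−0.49, limma adjusted p = 0.000102). With IFNγ its difference was −0.43. *Rps6ka1*, a kinase that ERK activates, was higher by 0.72 without IFNγ and 0.93 with it (adjusted p = 9.49e-06 and 9.11e-07). *Mapk3*, which encodes the kinase ERK1, was lower without IFNγ (−0.15, adjusted p = 0.0135) and did not pass with it (−0.07, adjusted p = 0.197).

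**Figure D4:**
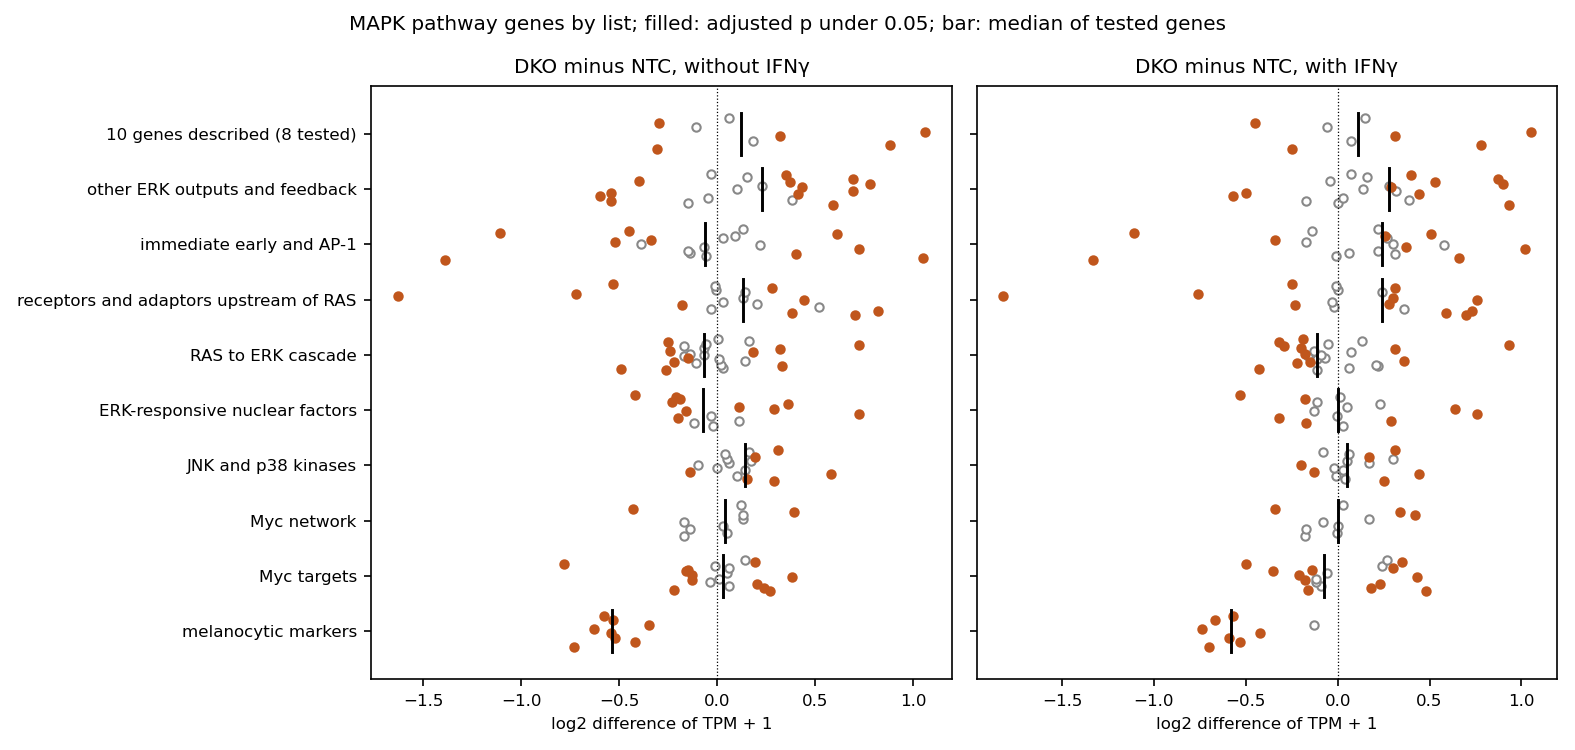
Log2 difference of TPM + 1 between DKO and NTC (x axis) without IFNγ (left) and with it (right) for each tested gene of 10 lists (y axis); filled points have a limma adjusted p under 0.05, open points do not, and bars are medians. Every pathway list holds filled points on both sides of 0, while all 8 melanocytic markers are on the left of 0 in each panel and 1 of them is open with IFNγ.

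Without IFNγ, 4 of 18 tested immediate early and AP-1 genes rose in DKO cells and 5 fell (50% called beside 36.4% of all tested genes), and 5 and 3 with IFNγ (44.4% beside 43.3%). *Atf3*, a stress-induced factor, fell from 33.7, 26.9 and 30.2 to 11.1, 12.2 and 9.42 TPM (−1.39, limma adjusted p = 2.41e-07). *Nr4a3*, an orphan nuclear receptor, fell from 81.6, 80.5 and 79.1 to 39.2, 34.3 and 37.2 TPM (−1.11, adjusted p = 3.41e-08). With IFNγ these values were −1.33 and −1.11. *Ier5* rose by 0.72 and 1.02 (adjusted p = 0.0012 and 6.72e-05), and *Btg2*, which restrains proliferation, by 1.05 and 0.66 (adjusted p = 0.00232 and 0.028). The 5 higher calls with IFNγ dropped to 2 without treated NTC replicate 3, treated DKO replicate 1 or treated DKO replicate 2.

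With IFNγ in NTC cells, 6 of these 18 genes were lower and 1 higher (38.9% called beside 12.1% of all tested genes). *Jund* went from 37.8, 59.1 and 50 to 32, 27.4 and 17.8 TPM (−0.92, limma adjusted p = 0.0285) and *Junb* from 6.42, 9.03 and 6.29 to 5.15, 3.67 and 2.58 TPM (−0.80, adjusted p = 0.041). The 6 lower calls fell to 0 without untreated NTC replicate 2 or replicate 3, and to 1 without treated NTC replicate 2 or replicate 3. They also fell to 1 after correction for GC content and length. None of the 18 passed for IFNγ in DKO cells or for the difference between the responses.

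Nuclear substrates of ERK and their partners changed both ways in DKO cells, with 4 of 14 tested genes higher without IFNγ and 6 lower (71.4% called beside 36.4% of all tested genes), and 3 and 4 with IFNγ (50% beside 43.3%). *Elk3*, an ETS factor that ERK phosphorylates, rose from 22.9, 23.2 and 20.1 to 39.6, 34.8 and 36.5 TPM (0.72, limma adjusted p = 3.78e-06). *Erf*, an ETS repressor that ERK sends out of the nucleus, was higher by 0.29 and 0.64 (adjusted p = 0.0135 and 3.87e-05). *Mitf*, the master factor of melanocytes and an ERK substrate, was lower, at −0.42 and −0.53 (adjusted p = 1.71e-05 and 2.14e-06). It is also on the melanocytic list. Without IFNγ the counts of 4 and 6 dropped to 2 and 1 without untreated NTC replicate 1 and to 2 and 2 without untreated DKO replicate 2, and the higher count dropped to 2 without untreated NTC replicate 3 and to 1 without untreated DKO replicate 1.

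The other MAP kinase arms, JNK, p38 and ERK5, had 5 of 15 tested genes higher and 1 lower without IFNγ (40% called beside 36.4% of all tested genes). With IFNγ 4 were higher and 2 lower (40% beside 43.3%). These shares were close to those of all tested genes. *Map2k6*, a kinase that activates p38, rose by 0.58 and 0.44 (limma adjusted p = 4.28e-05 and 0.000351), and *Mapk9*, which encodes JNK2, by 0.31 in each case. *Map2k7*, a kinase upstream of JNK, was lower, at −0.14 and −0.13, and the lower calls fell to 0 in several fits that left out 1 library. Around *Myc*, whose own RNA did not pass, 1 of 10 tested partners and antagonists was higher and 1 lower without IFNγ (20% called beside 36.4%), and 2 and 1 with it (30% beside 43.3%). The antagonist *Mxd4* was higher by 0.39 (adjusted p = 0.000698) and *Mxi1*, another antagonist, lower at −0.43 (adjusted p = 8.96e-06). Of 18 tested targets of *Myc*, 5 were higher and 6 lower without IFNγ (61.1% called beside 36.4%), and 6 and 6 with it (66.7% beside 43.3%), with differences without IFNγ from *Nolc1* at 0.38 to *Shmt2* at −0.78. The lower count without IFNγ was 3 without untreated NTC replicate 1, NTC replicate 3 or DKO replicate 1.

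The genes whose pattern over the 4 group means was nearest to a called member were found by the smallest root mean square difference of log2(TPM + 1), each gene centred on its own mean. For *Dusp6* these were *Col9a1* (0.022), *Carhsp1* (0.0229) and *Fam129b* (0.0332). For *Etv5* they were *Capg* (0.0317), *S100a4* (0.0428) and *Crb2* (0.044). For *Dusp4* they were *Stam*, *Mea1* and *Nrm* (0.00345 to 0.00833), for *Spred1* *Cpne4*, *Carf* and *Dnajc27* (0.011 to 0.0138), and for *Etv4* *Gm17655*, *Dhrs13* and *Calcoco1* (0.0125 to 0.018). None of these is another of the 10 genes, and likeness over 4 means of shared libraries is a description with no test. Some were near the floor in NTC cells. *Crb2* averaged 0.39 TPM untreated and 0.301 TPM treated there, against 1.81 and 1.77 TPM in DKO cells. *Col9a1* averaged 0.88 and 0.694 TPM in NTC cells, against 2.37 and 1.97 TPM in DKO cells.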

How the data were processed

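RNA-seq was carried out on 12 libraries of B16-F10 cells, 3 in each of 4 conditions. The authors state that libraries were poly(A) selected without strand information and sequenced to about 40 M paired reads, each of 50 bp. Transcripts were quantified by the authors with RSEM 1.2.4, modified to call Bowtie, on an annotation merged from Ensembl 71, UCSC and MISO, and TopHat 20.8b was run on unaligned reads against GRCm38 (the submitters' processing notes also list GRCh37). Per gene the authors deposited TPM under a name that says counts. Depth cannot be recovered from TPM, and precision here is the replicate spread, a median SD (log2) of 0.069 to 0.0934 by group. A scaling between libraries is not given in the sources used here. Listed genes summed to 844185 to 874612 TPM in NTC and 805782 to 827191 TPM in DKO libraries.

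A gene was tested if 3 or more libraries held 1 TPM of it. limma 3.58.1 (R 4.3.3) was run on log2(TPM + 1), with 1 mean per condition and a variance prior that follows expression. Adjusted p-values are Benjamini-Hochberg values over all genes tested in a comparison. Tables were made with pandas 2.3.3 and numpy 2.4.6 in Python 3.11.15, permutation tests with scipy 1.17.1 and plots with matplotlib 3.10.9. Loci came from GENCODE mouse release 21 on GRCm38 and promoter windows from RefSeq (GRCm38.p6).

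The 10 genes, the lists and the tests were chosen with earlier results of these data known. Named genes are the 10, *Mbnl1* and *Mbnl2*, up to 3 genes per list, direction and comparison with the largest difference among called genes whose libraries do not overlap, and for each called gene of the 10 its 3 nearest patterns. A gene of the RAS to ERK list that this rule takes is not reported here. Other genes were named after their values were seen: *Cic* without IFNγ, *Spry1*, *Spred2*, *Spred3*, *Dusp7*, *Areg*, *Ereg*, *Mapk3* and *Sox10*, with the markers listed at 0. Alternatives were a pseudocount of 0.1 TPM, no filter, a replicate block, each library left out, only the 6 libraries compared, same-total and median-ratio scaling, and correction of each library for GC content and length, known for 99.1% of tested genes. A filter at 0.25 TPM and the search for TGAATG were added after seeing the data. *Hras*, *Spry3*, *Mycl* and *Adgre1*, which the lists include, were not analysed here.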

Additional observations from a re-analysis of the deposited data

How the results depend on the processing

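*Dusp4*, *Dusp6*, *Spred1* and *Etv5* passed in both genotype comparisons under each of 21 alternatives and kept their direction, with log2 differences without IFNγ of −0.35 to −0.26, 0.84 to 0.93, −0.32 to −0.25 and 1.03 to 1.24, and with IFNγ of −0.35 to −0.16, 0.71 to 0.86, −0.50 to −0.34 and 0.97 to 1.26. *Etv4* passed in 8 of 21 without IFNγ (adjusted p = 0.0237 to 0.117 in limma) and in 7 of 21 with it (0.0219 to 0.328). Of the fits that left out a library, those without treated DKO replicate 2 or replicate 3 kept both calls, the fit without treated DKO replicate 1 kept the call without IFNγ, and the others kept neither. The cause was not tested. The number of tested genes called for IFNγ in NTC cells, 1411, was 897 with no filter, 524 after correction for GC content and length and 405 with both that and the replicate block, and it lay between 317 and 2023 when 1 library was left out. Leaving out replicate 3 or replicate 2 of treated NTC gave 317 and 328, and leaving out replicate 3 or replicate 2 of untreated NTC gave 351 and 394. The count for the difference in IFNγ response, 4, was 10 with no filter, 2 with the replicate block and 0 to 7 when 1 library was left out, staying at 4 without untreated DKO replicate 1 alone. None of the 8 tested genes passed for IFNγ or for the difference in response under any alternative. Of 842 values of single genes under alternatives, 770 kept direction and call, 43 changed sign without being called, 2 became calls (*Spry2* with IFNγ) and 27 lost the call, all of *Etv4*. No called value changed sign.

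No clear pairing of the samples by replicate number was seen, and with 3 libraries per group a weak pairing could be missed. Deviations of same-numbered libraries correlated between −0.179 and 0.182, with 4 of 18 pairs over 0.1, and 2 of 12 libraries correlated best with their own number. With the replicate block the counts of called genes were 4063 and 4899 for genotype without and with IFNγ, and 1118 and 75 for IFNγ in NTC and DKO cells, beside 4247, 5053, 1411 and 91 without it. The block ended both calls of *Etv4* (adjusted p = 0.066 and 0.0608). TPM hold no read counts, so low genes such as *Spry4*, *Fosl1*, *Egr1* and *Etv4* carry no stated counting error, and leaving out a library gave no value for *Spry4* and *Fosl1*, which were below the filter.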
